A study of Bos taurus with 9 samples.

Results

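In the small RNA of extracellular vesicles (EVs) from bovine ovarian follicular fluid, 45 loci carried the name of a miRNA of another species. The study listed 249 loci as known or homologous miRNA, and kept loci for that list by their mean counts in these samples. The 45 homologous loci are those whose name does not begin with bta, the prefix of Bos taurus. Names defined this set, but it was chosen with earlier results of these data known. The 45 loci bear 44 names, since ssc-miR-1285 stands at 2 loci. By prefix, 29 loci were named after goat (chi), 3 after pig (ssc), 2 each after horse (eca), human (hsa), rhesus macaque (mml) and rat (rno), and 1 each after dog (cfa), big brown bat (efu), mouse (mmu), sheep (oar) and tree shrew (tch). The other 204 loci have bta names.

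EVs are membrane-bound particles released by cells, and follicular fluid fills the cavity of the follicle that holds the oocyte. Ovaries of cows came from an abattoir, the fluid was pooled by follicle diameter, EVs were isolated by ultracentrifugation and their small RNA was sequenced. The groups were 3 pools of small (3 to 5 mm), 3 of medium (6 to 9 mm) and 3 of large (over 9 mm) follicles, numbered small 1, 2 and 4, medium 5, 6 and 8, and large 10, 11 and 12, and values by sample are given in that order. Each pool mixed the fluid of many follicles, which were not sorted by health. By the study's methods, 3 separate collections of ovaries each gave fluid of all 3 sizes, but the labels do not say which pools share a collection, so the pools could not be paired and the p-values measure the spread between them.

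A miRNA is cut from a hairpin transcript by Drosha in the nucleus and by Dicer in the cytoplasm. Dicer leaves a short duplex with 1 strand from each arm of the hairpin, named 5p and 3p after the end of the hairpin they lie nearer to. A strand of the duplex is usually loaded into an Argonaute protein, where it guides the silencing of mRNAs that match its seed, and the other strand is mostly degraded. Which arm is kept differs between hairpins and can differ between tissues, so the ratio of the arms carries information apart from the amount of the hairpin.

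Summed counts over all 101889 deposited loci ranged from 8941598 to 14664460 per sample, but the homologous loci took from 4659 to 100275 of them. Their counts were 100275, 38820 and 85884 in the small, 16594, 15712 and 51510 in the medium and 5640, 4659 and 35838 in the large pools. Medium 8 and large 12 thus held more of these reads than the other pools of their size, and the median homologous locus had 25 counts in large 10 and 27 in large 11. A count of 0 allows a share of up to 2.05e-05% to 3.36e-05% of a sample (3 counts of its total), which covers counting error only. As a part of the counts on all 249 loci the homologous loci made up 3.06% ± 0.0962 in the small, 3.82% ± 0.434 in the medium and 4.09% ± 1.18 in the large pools (SD, n = 3). These ranges overlapped between medium and large follicles. As a part of all deposited loci the order was the opposite, with 0.654% ± 0.207, 0.252% ± 0.201 and 0.137% ± 0.147 (SD, n = 3). In bulk samples, fewer EVs of a kind and less RNA in each EV cannot be told apart.

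Of the 45 names, 33 end in 3p and 6 in 5p, and 6 give no arm. A bta locus lay on the same chromosome and strand, with its start 20 to 80 bases away, for 33 of the 45, and the distances found were 30 to 58 bases (median 39). In these 33 pairs the homologous locus was on the 3p side of the bta locus in 28 and on the 5p side in 5, and the side matched the arm given in the names in 32 pairs (in that of efu-miR-181f neither name gives an arm). These 33 loci are thus the opposite arms of hairpins that have another arm with a bovine name. In a RefSeq table of another assembly (ARS-UCD2.0), 42 of the 45 were matched to a miRNA gene, and 29 of those genes lie within the span of a protein-coding gene. Among them are MIR106B and MIR25 in MCM7, MIR452 and MIR3431 in GABRE, MIR335 in MEST, MIR28 in LPP, MIR30E in NFYC and MIR361 in CHM. On chromosome X lay 8 of the 45 (17.8%), beside 29 of the 204 bta loci (14.2%).

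The bta arm held most of the reads of a pair in most hairpins. Over all 9 samples the homologous arm made up from 0.0449% (chi-miR-10b-3p) to 91.7% (chi-miR-28-3p) of the counts of its pair, with a median of 10.6%. It was the scarcer arm in each of the 9 samples in 21 pairs, the more abundant arm in all 9 in 3 pairs, and changed place between samples in 9 pairs. Under 1% of the pair was found for 9 homologous arms, among them chi-miR-27b-5p with 0.0632%, chi-miR-25-5p with 0.190%, chi-miR-191-3p with 0.460% and chi-miR-148a-5p with 0.584%. In 13 pairs in which both arms have bta names, the scarcer arm made up 0.0548% to 47.7% of the counts, with a median of 10.7%.

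The 3 pairs with the homologous arm ahead in every sample were those of chi-miR-202-3p, chi-miR-28-3p and cfa-miR-542. chi-miR-202-3p (chr26:25988292-25988314 of UMD3.1, plus strand), from a hairpin known for its expression in the somatic cells of the gonads, was the most abundant homologous locus, with 161713 counts or 45.6% of all counts on the 45 loci. Its share of the counts of its pair with bta-miR-202 was 78.5, 88.3 and 72.6% in the small, 76.7, 89.7 and 83.7% in the medium and 78.8, 68.2 and 87.0% in the large pools. In every pool the 3p arm had over 68% of the reads, and the sizes overlapped. The log2 ratio of its arms differed by -0.15 ± 0.56 (SE) between large and small follicles (edgeR FDR = 0.851). Here edgeR FDR is the p of edgeR's quasi-likelihood test after Benjamini-Hochberg adjustment, over all 46 arm pairs for a ratio and over all 249 loci for an abundance, and a value under 0.05 was called. The normalized counts (CPM) of chi-miR-202-3p itself, scaled by TMM over the 249 loci, were 13710, 16670 and 13830 in the small, 11810, 16540 and 22110 in the medium and 9118, 7900 and 29820 in the large pools. Large 12 was the highest and large 10 and 11 were the lowest of all pools, so that large follicles enclosed the other sizes. The difference between large and small follicles was 0.08 ± 0.48 (SE) on the log2 scale (edgeR FDR = 0.916), and -0.79 without large 12.

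cfa-miR-542, on chromosome X, made up 80.02, 84.1 and 80.2% in the small, 67.9, 86.6 and 58.1% in the medium and 79.0, 76.5 and 63.1% in the large pools of the counts shared with bta-miR-542-5p. All 9 values were above 58%, and large follicles lay below small follicles without overlap. The difference in the log2 ratio, -0.70 ± 0.62 (SE), did not pass the test (edgeR FDR = 0.408), and bta-miR-542-5p had only 12 to 183 counts in a sample. The 3 homologous loci with the most counts were chi-miR-202-3p, chi-miR-28-3p (42876 counts) and chi-miR-125b-3p (17831 counts), and the latter 2 are described with the comparisons of follicle sizes.

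Compared with small follicles, large follicles had 8 homologous loci at higher and 8 at lower abundance relative to the miRNA set, by the edgeR FDR over the 249 loci. The higher loci were efu-miR-181f, chi-let-7b-3p, chi-let-7d-3p, chi-miR-28-3p, both loci of ssc-miR-1285, chi-miR-361-3p and chi-miR-195-3p, by 2.64- to 4.57-fold, but all 8 had negative log2 values when scaled by all deposited loci. The lower loci were chi-miR-708-3p, mml-miR-452-3p, chi-miR-145-3p, chi-miR-335-3p, eca-miR-199b-3p, chi-miR-1307-5p, ssc-miR-148b-5p and chi-miR-3431-3p, by 1.88- to 5.73-fold. They stayed lower under every scaling tried, but the scalings by all deposited loci lower the whole set. Their sign under those scalings was thus fixed in advance. Of these 16 loci, 3 of the higher (chi-let-7b-3p and both of ssc-miR-1285) and 3 of the lower (chi-miR-708-3p, mml-miR-452-3p and chi-miR-145-3p) averaged 100 counts or more, the level at which the study kept a locus, in small follicles alone. For those 3 lower loci entry thus rested on the size in which they were high. The 16 calls were 35.6% of the homologous loci. Over all 249 loci, the homologous loci included, 42.2% were called, 17.7% higher and 24.5% lower. The difference between these shares was not tested. The median log2 fold change was 0.04 over the 45 loci and -0.18 over the 249. Under TMM over all deposited loci the median of the 249 loci was -4.71, and under the total count of all loci it was -3.06, so that the abundance changes here are changes within the miRNA set. Normalized counts did not overlap between small and large follicles for 22 of the 45 loci, beside 53.0% of the 249. The count of calls was 8 without small 1 and 10 without large 11, and between 11 and 19 without any other single pool. Shares over the 249 loci are not given for these fits.

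**Figure D1:**
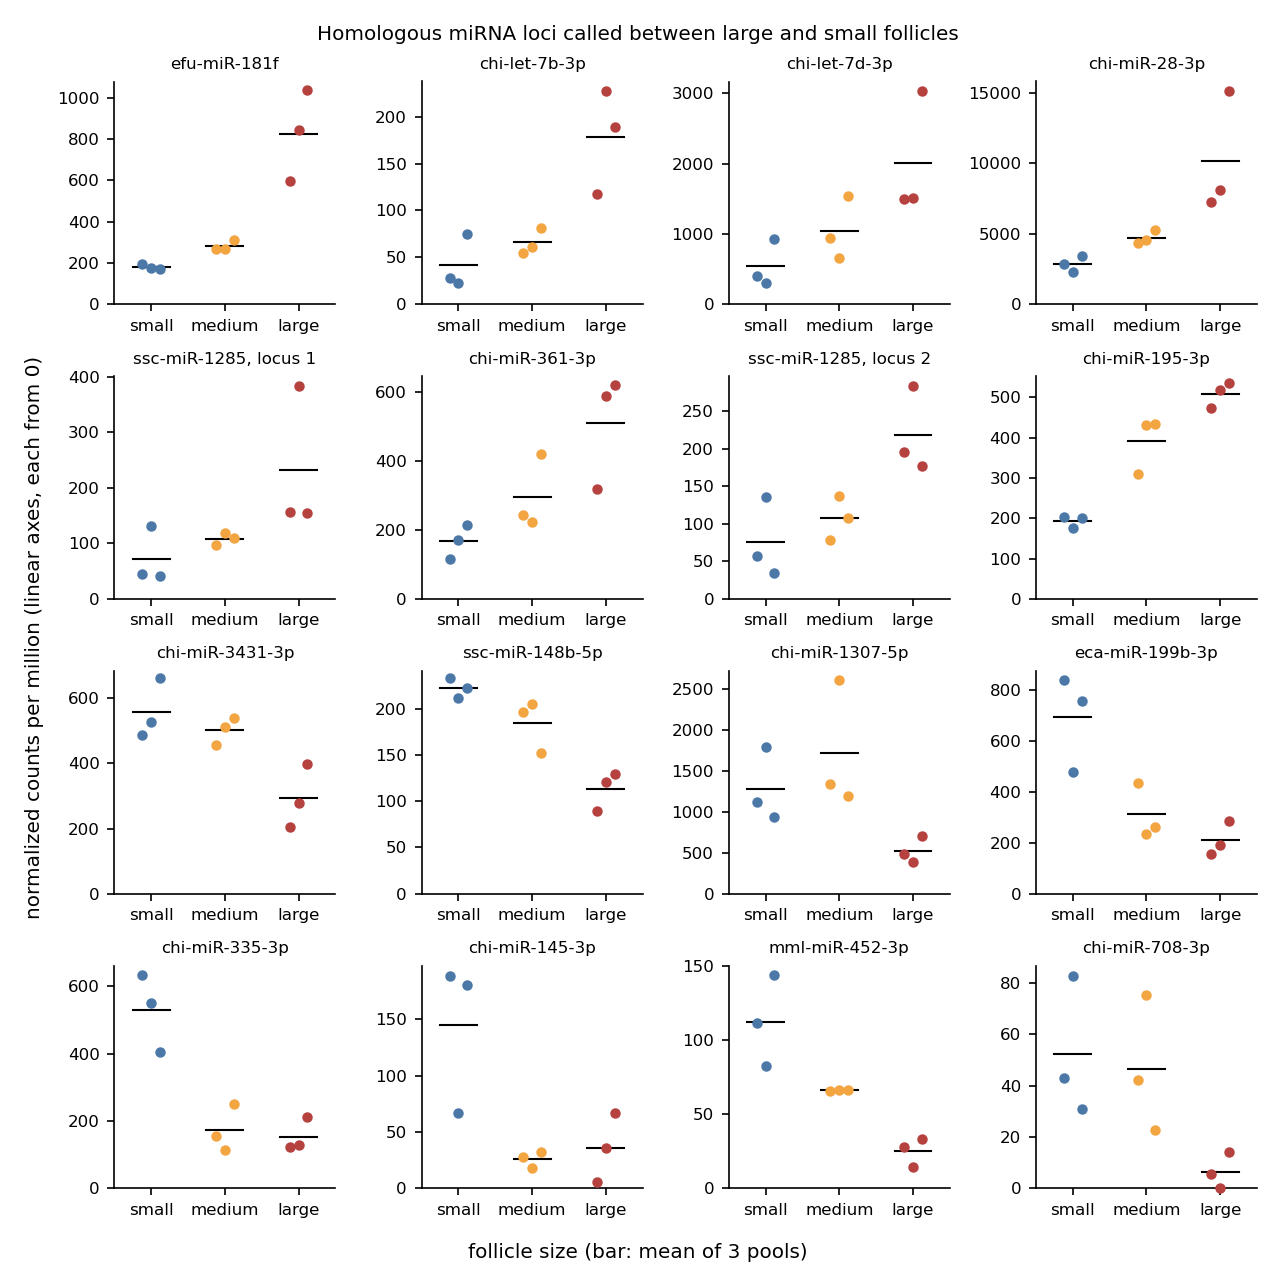
Normalized counts (CPM, TMM over the 249 known and homologous loci, linear axes from 0) of the 16 homologous loci called between large and small follicles, by follicle size, with a point per pool and a bar at the mean of 3 pools. The upper 8 loci were higher in large follicles relative to the miRNA set, with negative log2 values under the scalings by all deposited loci, and the lower 8 were lower; chi-miR-145-3p is the one whose small and large pools overlap, and locus 1 of ssc-miR-1285 starts at base 42877892 and locus 2 at 42863853.

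The largest rise was that of efu-miR-181f at chr11:95709487-95709508 (plus strand), whose matched hairpin gene, MIR181A-2, lies within the span of NR6A1. Its normalized counts were 196, 175 and 173 in the small, 266, 269 and 309 in the medium and 597, 845 and 1035 in the large pools. The large pools were spread more widely than the small and medium pools, and the 3 sizes did not overlap. It was 4.57-fold higher in large than in small follicles (2.19 ± 0.33 (SE) on the log2 scale, edgeR FDR = 0.000598) and 2.94-fold higher in large than in medium follicles (edgeR FDR = 0.0297), relative to the miRNA set, while scaling by the total count of all loci gave -0.64 against small follicles. The call against medium follicles was lost without medium 5, medium 6 or large 11, with an edgeR FDR of up to 0.132.

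chi-let-7b-3p at chr5:117120245-117120266 (plus strand), the scarce arm of a let-7 hairpin, had normalized counts of 27.7, 22.2 and 74.6 in the small, 55.0, 61.5 and 80.9 in the medium and 117, 227 and 189 in the large pools. Every large pool was above every other pool, while small 4 lay among the medium pools. The log2 fold change from small to large follicles was 2.08 ± 0.52 (SE) (edgeR FDR = 0.00893), with 2.93 without small 4, and -1.01 when scaled by the total count of all loci. chi-let-7d-3p at chr8:86887492-86887513 (plus strand) had 406, 297 and 933 in the small, 944, 652 and 1532 in the medium and 1495, 1506 and 3030 in the large pools. The small pools were all lower than the large ones, and medium 8 reached the level of large 10 and 11. Its log2 fold change was 1.88 ± 0.50 (SE) (edgeR FDR = 0.0116), and -0.97 when scaled by the total count of all loci. It was 2.63 without small 4, and the call was lost without small 1 (edgeR FDR = 0.0538).

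Of the other loci called higher, chi-miR-28-3p (chr1:79250541-79250563, minus strand, within the span of LPP) was the most abundant, with normalized counts of 2844, 2272 and 3402 in the small, 4318, 4543 and 5273 in the medium and 7228, 8085 and 15160 in the large pools. The 3 sizes did not overlap. It was 3.58-fold higher in large than in small follicles (edgeR FDR = 0.00288), chi-miR-361-3p 3.05-fold (edgeR FDR = 0.00954) and chi-miR-195-3p 2.64-fold (edgeR FDR = 0.0055), each within the miRNA set alone, since the log2 values under the total count of all loci were -0.92, -1.27 and -1.55. The 2 loci of ssc-miR-1285, at chr10:42863853-42863882 and chr10:42877892-42877921 (minus strand), are 30 bases long, while the other 43 homologous loci are 21 to 25 bases long. They had 847 and 816 counts, and their counts were in a ratio of 0.741 to 1.29 in each sample, so reads of the name may be split between them. The first had normalized counts of 57.5, 136 and 34.2 in the small, 78.8, 137 and 108 in the medium and 195, 284 and 177 in the large pools. The second had 44.6, 131 and 41.1 in the small, 97.2, 119 and 109.5 in the medium and 156, 384 and 154 in the large pools. At both, every large pool was above every small pool. Their log2 fold changes were 1.52 ± 0.52 (SE) (edgeR FDR = 0.0339) and 1.67 ± 0.54 (SE) (edgeR FDR = 0.0289), with -1.31 and -1.29 under the total count of all loci. Without small 2 they were 2.24 and 2.41, and both calls were lost without small 1, small 4 or large 11, with an edgeR FDR of up to 0.133.

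Among the loci lower in large follicles, mml-miR-452-3p at chrX:34665635-34665656 (minus strand) had normalized counts of 111, 82.6 and 144 in the small, 66.0, 66.1 and 66.6 in the medium and 27.9, 14.2 and 33.6 in the large pools. The sizes followed each other without overlap, with the medium pools nearly equal, and the large pools rested on 2 to 19 counts. It was 4.17-fold lower in large than in small follicles (edgeR FDR = 0.00586), but it entered the list only through small follicles, in which it was high. chi-miR-3431-3p, whose matched hairpin gene lies in the span of the same gene (GABRE), was 1.88-fold lower (edgeR FDR = 0.0474), a call kept only when large 12 was the pool left out. chi-miR-335-3p at chr4:95071042-95071063 (plus strand), from a hairpin in the span of the imprinted gene MEST, had 634, 550.2 and 405 in the small, 156, 114 and 249 in the medium and 123, 128 and 211 in the large pools. All small pools were above all medium and large pools, which overlapped each other. It was 3.39-fold lower in large than in small follicles (edgeR FDR = 0.00659). eca-miR-199b-3p at chr11:98867681-98867702 (minus strand) had 842, 480.4 and 758 in the small, 436, 235 and 264 in the medium and 156, 192 and 285 in the large pools. The small pools were again the highest and overlapped neither other size, and the fold change was 3.25-fold lower (edgeR FDR = 0.00678). This locus had 6254 counts, and the 2 loci of bta-miR-199a-3p had 6261 and 6321, with a ratio of 0.778 to 1.07 in each sample, so that its reads cannot be assigned to 1 hairpin from these counts.

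The lowest log2 value was that of chi-miR-708-3p at chr29:16686296-16686318 (plus strand), with normalized counts of 43.1, 82.6 and 30.9 in the small, 42.2, 75.2 and 22.8 in the medium and 5.58, 0 and 14.2 in the large pools. The large pools held 1, 0 and 8 reads, below every other pool. The locus entered the list through small follicles alone. The fitted log2 fold change was -2.52 ± 0.80 (SE) (edgeR FDR = 0.0266), and the call was lost without small 1, small 2, large 10 or large 11, with an edgeR FDR of up to 0.0741. Without large 12 the value was -4.01. chi-miR-145-3p, from a hairpin known for its expression in smooth muscle, had 188, 66.4 and 180.1 in the small, 27.5, 18.2 and 32.0 in the medium and 5.58, 35.5 and 67.2 in the large pools. The medium pools were all below the small pools, and large 12 was level with small 2. The entry of chi-miR-145-3p into the list also rested on small follicles alone. Its log2 fold change was -1.86 ± 0.65 (SE) (edgeR FDR = 0.0391), lost without small 1, small 4, medium 5, large 10 or large 11, and -2.91 without large 12. chi-miR-1307-5p was 2.44-fold lower than in small (edgeR FDR = 0.0275) and 3.26-fold lower than in medium follicles (edgeR FDR = 0.0415). The first of these was lost without small 1, small 2, large 10 or large 11 and the second without small 1, medium 5, medium 6, large 10 or large 11. ssc-miR-148b-5p was 1.96-fold lower than in small follicles (edgeR FDR = 0.04), a call kept only without medium 8 or without large 12.

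Between large and medium follicles 2 of the 45 loci were called, efu-miR-181f higher and chi-miR-1307-5p lower, beside 10.4% of the 249 loci (5.62% higher and 4.82% lower). DESeq2 and edgeR's exact test each called 6 of the 45, beside 25.3% and 22.1% of the 249. Between medium and small follicles no homologous locus and 0.0% of the 249 loci had an edgeR FDR under 0.05, while 5 of the 45, beside 17.7% of the 249, had an unadjusted p under 0.05. DESeq2 called 4 of the 45, beside 11.2% of the 249, and the exact test 3, beside 6.43%. The lowest FDR in that comparison, 0.0676, was shared by chi-miR-145-3p (-2.46 on the log2 scale) and chi-miR-335-3p (-1.60). chi-miR-34b-3p, from a family abundant in ciliated epithelium, had 63.4, 24.7 and 96.1 in the small, 508, 132 and 314 in the medium and 78.1, 28.4 and 149 in the large pools. Each medium pool was above each small pool, and large 12 was above medium 6. The log2 difference between medium and small follicles was 2.36 ± 0.65 (SE) (edgeR FDR = 0.068).

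The ratio of the arms of a hairpin changed between small and large follicles in 16 of the 33 pairs. The homologous arm gained on the bta arm in 10 pairs and lost in 6. In 3 of the losses (chi-miR-30d-3p, rno-let-7a-1-3p and hsa-miR-744-3p) and 1 of the gains (chi-let-7b-3p) the homologous arm averaged 100 counts or more in small follicles alone, so that the 3 losing arms entered through the size in which their share was high. These ratios compare 2 counts of the same library and do not move with the scaling. The 16 calls were 48.5% of the pairs, and over all 46 arm pairs, with the 13 of bta names included, 23 (50%) were called, 28.3% in favour of the first arm (the homologous, or in bta pairs the scarcer) and 21.7% against it. The ratios did not overlap between small and large pools in 18 of the 33 pairs, beside 58.7% of the 46, and in none of the 16 called pairs did they overlap. The median change over the 33 pairs was 0.06 on the log2 scale and the median size of the change, whatever its sign, was 1.39. Without large 11 the count of calls was 9, and without any other single pool it was 13 to 19. Shares over the 46 pairs are not given for these fits. In the 16 called pairs the abundance of both arms was called in 2 (chi-miR-335-3p and chi-miR-1307-5p), of the homologous arm alone in 5, of the bta arm alone in 7 and of neither in 2.

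**Figure D2:**
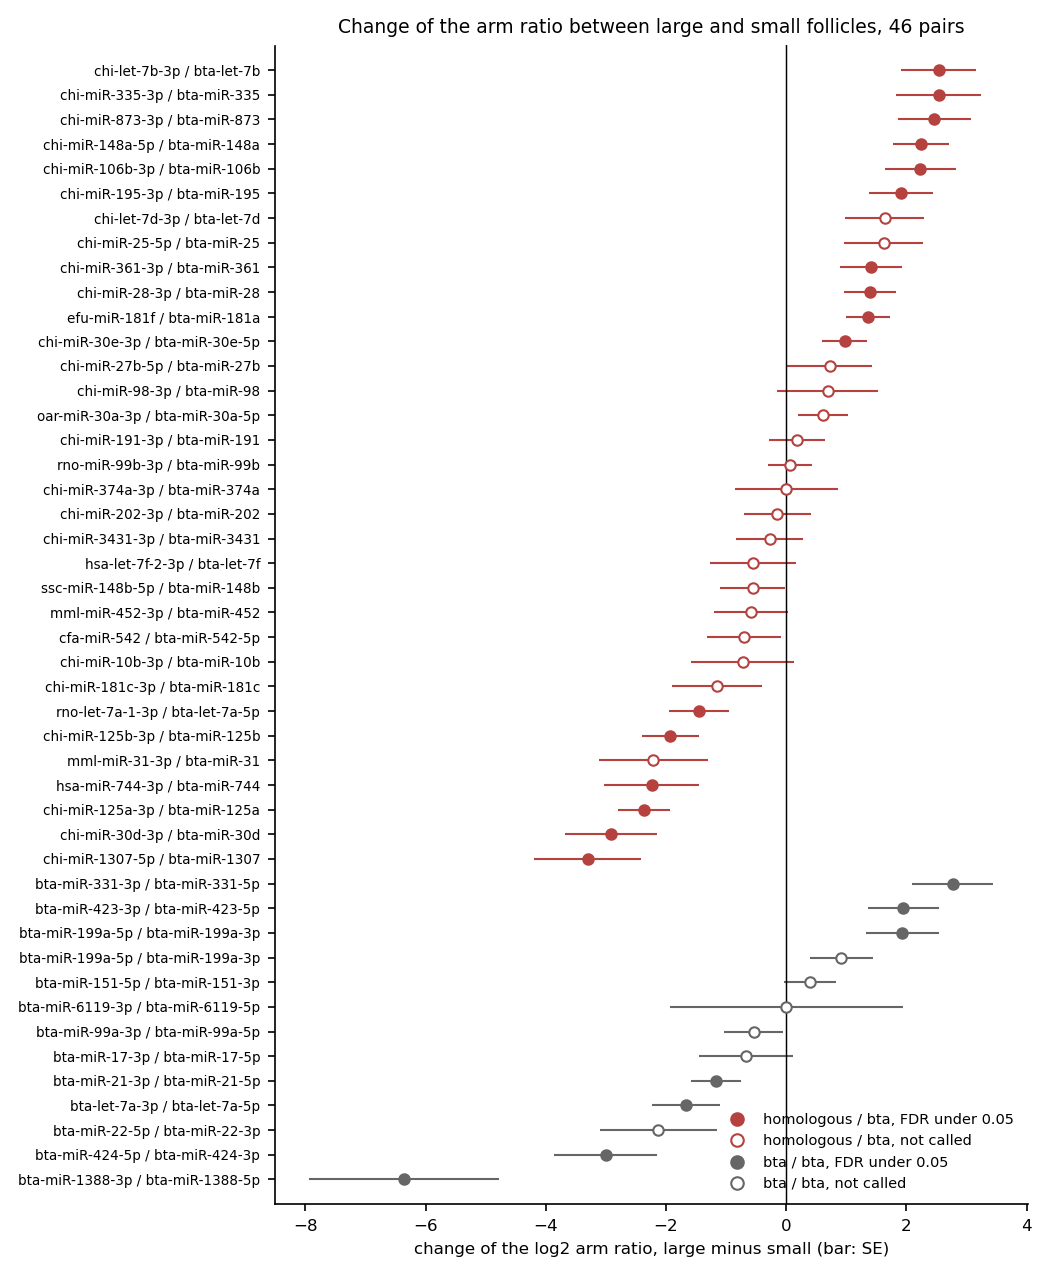
Change of the log2 arm ratio from small to large follicles (points) with its standard error (bars) for 33 pairs of a homologous and a bta arm (red) and 13 pairs of bta arms (grey, scarcer arm over the other), filled where the edgeR FDR was under 0.05. The homologous pairs spread from -3.31 (chi-miR-1307-5p) to 2.54 (chi-let-7b-3p), with 10 called above 0 and 6 below.

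In the let-7 hairpins, a family whose guide strands are known for restraining growth genes, 1 of 5 pairs gained, 1 lost and 3 did not pass the test. The share of chi-let-7b-3p in its pair with bta-let-7b was 0.154, 0.374 and 0.492% in the small, 0.344, 1.29 and 0.423% in the medium and 2.41, 2.502 and 0.946% in the large pools. It was under 0.5% in every small pool and above 0.9% in every large pool, with 21, 32 and 107 reads of this arm in large 10, 11 and 12. The log2 ratio rose by 2.54 ± 0.63 (SE) (edgeR FDR = 0.011). rno-let-7a-1-3p, the scarce arm of a hairpin on chromosome 8, went the other way, with 1.68, 1.35 and 2.57% in the small, 0.713, 0.572 and 1.30% in the medium and 0.632, 0.365 and 1.12% in the large pools. Small pools were all above the other pools, and medium 5 and 6 lay within the range of the large pools. This arm entered the list through small follicles alone. Its log2 ratio fell, with a change of -1.45 ± 0.50 (SE) (edgeR FDR = 0.0305), a call lost without small 1, small 4, large 10 or large 11. bta-let-7a-5p stands at 3 loci of near-equal counts, so the reads of that arm may come from other hairpins. chi-let-7d-3p, from a neighbouring hairpin on the same strand, had 21.8, 10.0 and 39.0% in the small, 39.6, 26.6 and 43.9% in the medium and 41.6, 36.6 and 59.8% in the large pools, with medium and large pools overlapping and large 11 below small 4. Its difference of 1.64 ± 0.66 (SE) did not pass the test (edgeR FDR = 0.0513), and neither did those of hsa-let-7f-2-3p (-0.55) and chi-miR-98-3p (0.69).

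In the pairs of miR-10, miR-99 and miR-125, chi-miR-125a-3p and chi-miR-125b-3p lost share and the other 2 did not pass the test. chi-miR-125a-3p (chr18:58015587-58015608, plus strand) had 4.92, 3.70 and 4.94% in the small, 1.97, 1.93 and 2.25% in the medium and 1.21, 0.449 and 1.18% in the large pools of the counts of its pair. The share of every medium pool was lower than that of every small pool and higher than that of every large pool. The log2 ratio fell, with a change of -2.37 ± 0.43 (SE) and the lowest FDR of the 33 pairs (edgeR FDR = 0.00493). The abundance of bta-miR-125a, 4165, 7659 and 14290 normalized counts in small, medium and large follicles, differed by 1.78 on the log2 scale (edgeR FDR = 0.00288) between large and small, and that of chi-miR-125a-3p, 193, 162 and 133, by -0.50 (edgeR FDR = 0.361). rno-miR-99b-3p, at chr18:58014912-58014934 on the same strand, had 1.34 to 2.58% of its pair in all 9 pools and a difference of 0.06 ± 0.37 (SE) between large and small follicles (edgeR FDR = 0.915). The difference between these neighbouring pairs was not tested.

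chi-miR-125b-3p (chr1:19881359-19881380, minus strand) had 80.02, 80.9 and 86.7% in the small, 63.9, 72.5 and 75.9% in the medium and 59.1, 45.5 and 61.9% in the large pools of its pair. It led in every pool but large 11, and the 3 sizes did not overlap. The log2 ratio fell, with a change of -1.93 ± 0.48 (SE) (edgeR FDR = 0.011). Its own normalized counts were 1351, 1422 and 2276 in the small, 1300, 1376 and 2027 in the medium and 1372, 1407 and 2390 in the large pools, with the sizes overlapping, and differed by 0.04 between large and small follicles (edgeR FDR = 0.95). bta-miR-125b rose by 2.00 on the log2 scale (edgeR FDR = 0.001) within the miRNA set, but like every other bta arm of the 33 pairs it had a negative value under the scalings by all deposited loci. This name stands at 2 loci whose counts were in a ratio of 0.852 to 1.06, so the reads of that arm may be shared with a hairpin on chromosome 15.

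**Figure D3:**
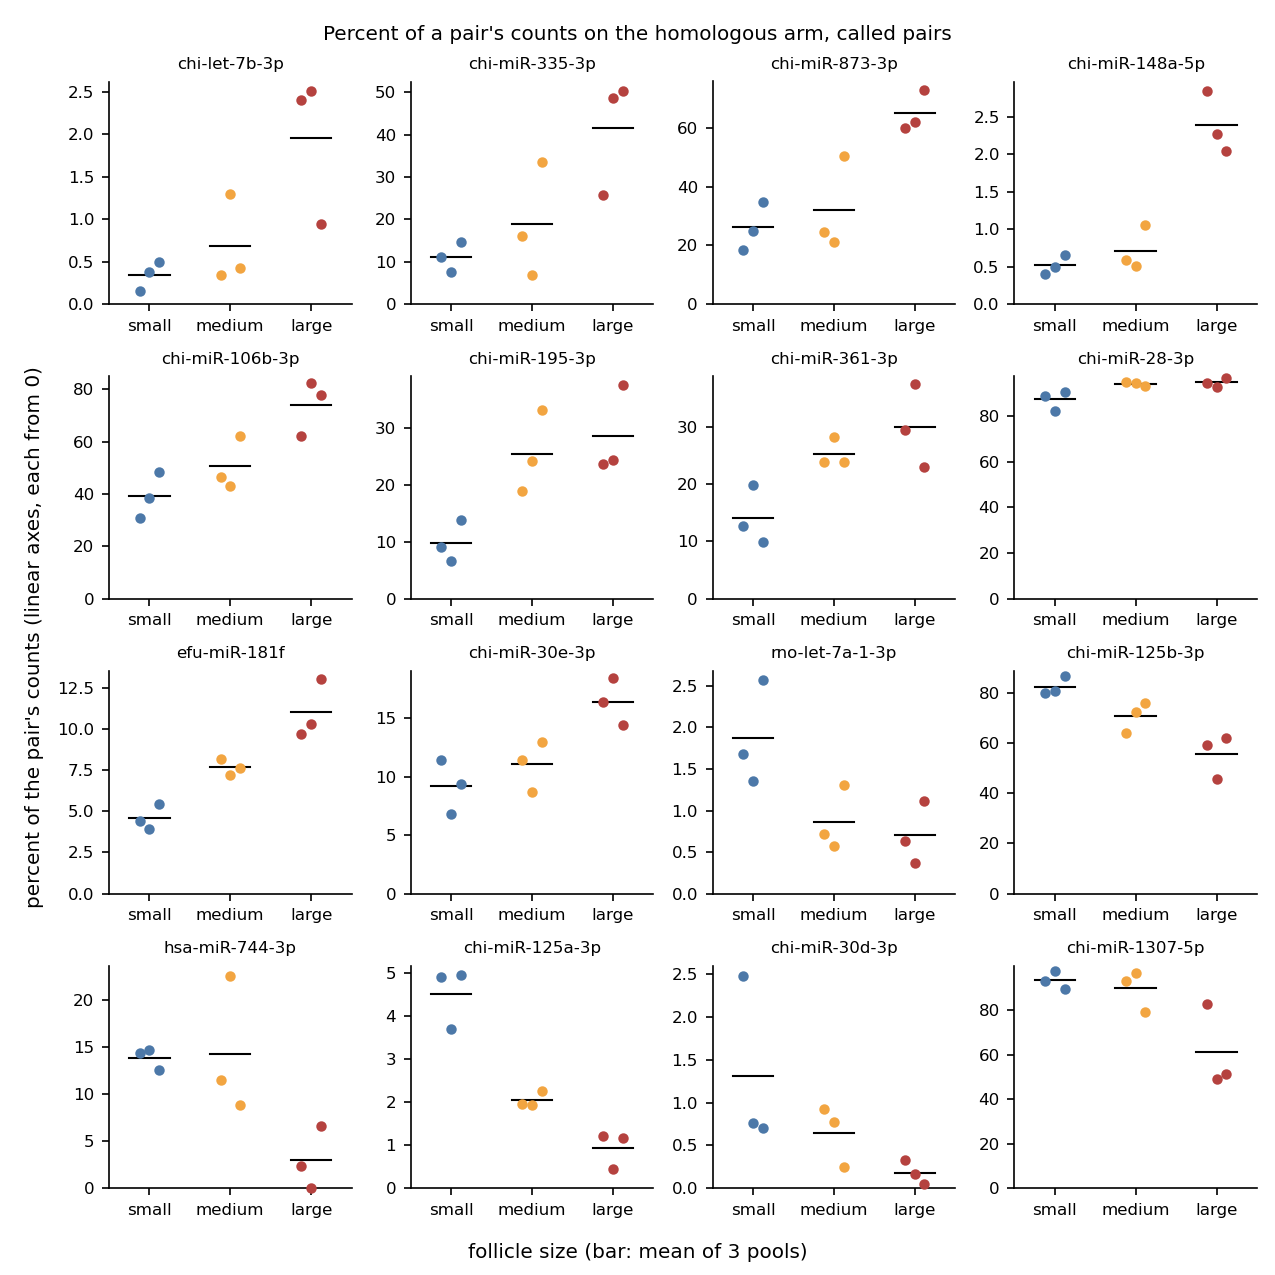
Percent of the counts of a pair that lay on the homologous arm (linear axes from 0) in the 16 pairs called between large and small follicles, with a point per pool and a bar at the mean of 3 pools of a size. The 10 pairs from chi-let-7b-3p to chi-miR-30e-3p were higher and the 6 from rno-let-7a-1-3p to chi-miR-1307-5p lower in large follicles, with no overlap between small and large pools.

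The 3p arms of the miR-30 family divided, with 1 gain, 1 loss and 1 pair that did not pass the test. chi-miR-30d-3p had 2.47, 0.758 and 0.708% in the small, 0.919, 0.773 and 0.251% in the medium and 0.326, 0.172 and 0.0550% in the large pools of its pair. Small 1 was the highest and large 12 the lowest, and small and large pools did not overlap. This arm entered the list through small follicles alone. The log2 ratio changed by -2.91 ± 0.77 (SE) (edgeR FDR = 0.012), and bta-miR-30d differed in abundance by 1.68 on the log2 scale (edgeR FDR = 0.00518). The change was -2.33 without small 1, -3.56 without large 10 and -2.19 without large 12. chi-miR-30e-3p, in the span of NFYC, had 11.4, 6.81 and 9.42% in the small, 11.5, 8.74 and 13.0% in the medium and 16.4, 18.5 and 14.4% in the large pools. Its large pools were above all other pools, which overlapped. The change was 0.98 ± 0.37 (SE) (edgeR FDR = 0.0436), kept only when small 1 or medium 6 was the pool left out. oar-miR-30a-3p had a difference of 0.61 (edgeR FDR = 0.26).

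Of the miR-148 and miR-181 hairpins, 2 of 4 pairs gained. chi-miR-148a-5p had 0.405, 0.491 and 0.661% in the small, 0.588, 0.504 and 1.05% in the medium and 2.85, 2.27 and 2.04% in the large pools of its pair. The large pools were all above 2% and all others at or below 1.05%. The log2 ratio rose by 2.24 ± 0.47 (SE) (edgeR FDR = 0.00815). The abundance of bta-miR-148a, 48360, 42620 and 17150 normalized counts by size, fell, with a difference of -1.50 on the log2 scale (edgeR FDR = 0.00977), and that of chi-miR-148a-5p was 239, 278 and 419 (edgeR FDR = 0.0608). For efu-miR-181f the share was 4.41, 3.95 and 5.47% in the small, 8.19, 7.23 and 7.61% in the medium and 9.67, 10.3 and 13.1% in the large pools. The 3 sizes were in order without overlap. Its ratio rose by 1.36 ± 0.37 (SE) (edgeR FDR = 0.012), and bta-miR-181a stands at 2 loci with counts in a ratio of 0.942 to 1.02. Without medium 8 and large 12 together, a choice made after seeing the data, the FDR of this ratio was 0.0592. chi-miR-181c-3p (-1.15) and ssc-miR-148b-5p (-0.56) did not pass the test.

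From the cluster of miR-106b and miR-25 in MCM7, a gene of DNA replication licensing, chi-miR-106b-3p had 30.7, 38.6 and 48.5% in the small, 46.6, 42.9 and 62.3% in the medium and 62.1, 82.4 and 77.9% in the large pools of its pair. It was the scarcer arm in every small pool and the more abundant arm in every large pool. The log2 ratio rose by 2.23 ± 0.59 (SE) (edgeR FDR = 0.012), a call lost without large 11 (edgeR FDR = 0.0505). Normalized counts of chi-miR-106b-3p were 453, 510.2 and 555 by size and those of bta-miR-106b 753, 519 and 180.0, the latter a difference of -2.06 on the log2 scale (edgeR FDR = 0.00461). In large follicles bta-miR-106b had only 39, 21 and 98 reads. chi-miR-25-5p, in the same cluster, had a difference of 1.62 ± 0.65 (SE) and did not pass the test (edgeR FDR = 0.0516), nor did chi-miR-27b-5p (0.72).

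chi-miR-335-3p rose in its pair while both arms fell. Its share was 11.0, 7.70 and 14.7% in the small, 16.2, 7.003 and 33.5% in the medium and 25.9, 48.7 and 50.4% in the large pools. The large pools were all above the small pools, and medium 8 was among the large pools. The log2 ratio changed by 2.53 ± 0.71 (SE) (edgeR FDR = 0.0128), lost without large 11 (edgeR FDR = 0.0534). Normalized counts of bta-miR-335 were 4689, 938 and 231 by size, a difference of -4.34 on the log2 scale (edgeR FDR = 0.000598), beside -1.76 for chi-miR-335-3p. The reads behind bta-miR-335 were 63, 19 and 117 in large 10, 11 and 12. chi-miR-195-3p, from a hairpin related to miR-15 and miR-16, had 9.13, 6.64 and 13.8% in the small, 18.9, 24.1 and 33.1% in the medium and 23.7, 24.4 and 37.5% in the large pools. Small pools were below all medium and large pools, which overlapped. Its log2 ratio rose by 1.91 ± 0.53 (SE) (edgeR FDR = 0.0128).

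chi-miR-28-3p, already the main arm of its hairpin, had 88.9, 82.3 and 90.5% in the small, 94.7, 94.5 and 93.2% in the medium and 94.5, 92.8 and 96.6% in the large pools of its pair. The small pools were the 3 lowest of the 9. The change was 1.39 ± 0.44 (SE) (edgeR FDR = 0.0197), lost without small 2 or large 12 (edgeR FDR up to 0.0769), and the FDR was 0.111 without both medium 8 and large 12. chi-miR-361-3p, on chromosome X, had 12.8, 19.9 and 9.87% in the small, 23.8, 28.2 and 23.8% in the medium and 29.4, 37.4 and 22.99% in the large pools. Small pools were again the lowest, and medium pools lay within the range of the large ones. The change of 1.40 ± 0.52 (SE) (edgeR FDR = 0.037) was lost without small 1, small 4, medium 5, large 10 or large 11.

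chi-miR-873-3p, in the span of LINGO2, had 18.6, 25.0 and 34.8% in the small, 24.7, 21.1 and 50.6% in the medium and 59.9, 62.2 and 73.1% in the large pools of its pair. It was the scarcer arm in all small pools and the more abundant arm in all large pools and in medium 8. The log2 ratio rose by 2.46 ± 0.61 (SE) (edgeR FDR = 0.011), and bta-miR-873 differed by -1.44 on the log2 scale (edgeR FDR = 0.0139). chi-miR-1307-5p, in the span of ATP5MK, had 92.9, 97.4 and 89.5% in the small, 93.1, 96.8 and 79.1% in the medium and 82.7, 49.1 and 51.2% in the large pools. It led by far in small follicles and was close to equal with bta-miR-1307 in large 11 and 12. The change of -3.31 ± 0.90 (SE) (edgeR FDR = 0.012) was the largest of the 33 pairs in size, and was lost without large 11 (edgeR FDR = 0.0584). It was -3.97 without large 10. Here both arms moved, chi-miR-1307-5p by -1.28 and bta-miR-1307 by 2.28 on the log2 scale (edgeR FDR = 0.0204) within the miRNA set, and the bta arm had 18 to 378 reads in a pool. hsa-miR-744-3p, in the span of MAP2K4, had 14.3, 14.7 and 12.5% in the small, 11.5, 22.5 and 8.88% in the medium and 2.33, 0 and 6.61% in the large pools. The large pools were the lowest, with 3, 0 and 41 reads of this arm, which entered the list through small follicles alone. The change of -2.24 ± 0.79 (SE) (edgeR FDR = 0.0316) was lost without small 1, small 2, small 4, large 10 or large 11, and was -3.62 without large 12.

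**Figure D4:**
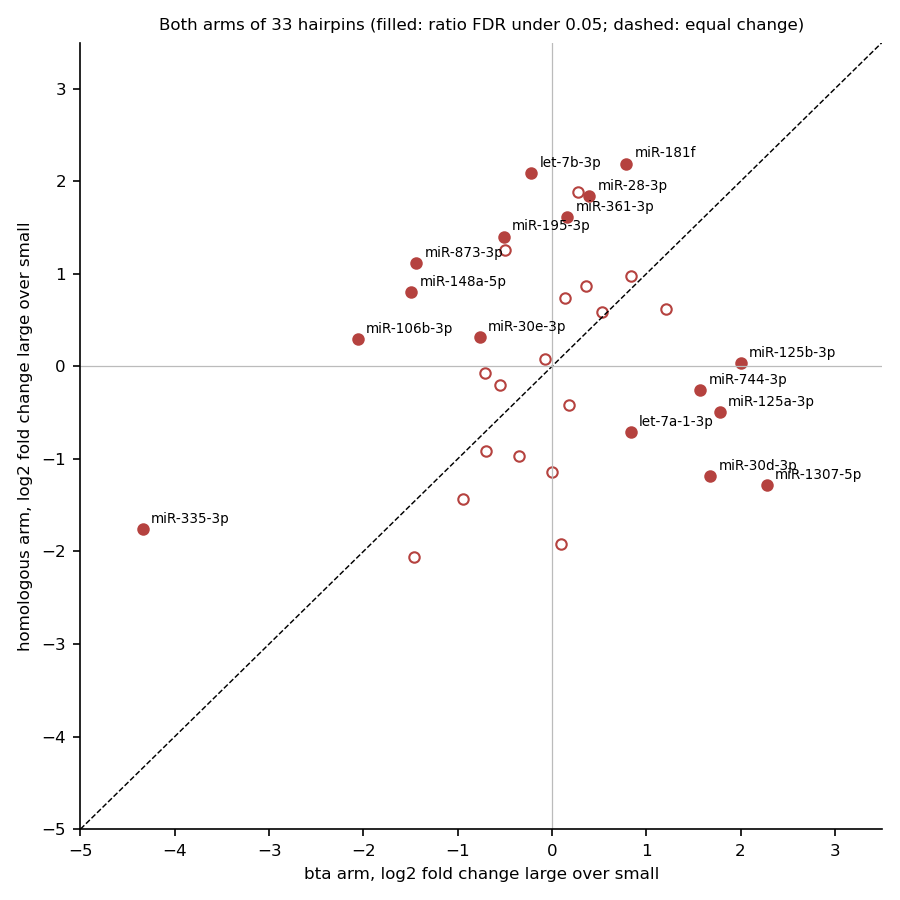
Log2 fold change of the homologous arm (vertical axis) and of the bta arm (horizontal axis) between large and small follicles within the miRNA set, for 33 hairpins, with filled points where the arm ratio was called (16) and a dashed line of equal change. Called pairs lie away from the line, and miR-335-3p is the called pair with both arms below 0. Signs of rises turn when all deposited loci set the scale, which moves a point parallel to the dashed line.

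In all 16 called pairs the mean log2 ratio of the medium follicles lay between those of small and large follicles. The same order held in the 7 called bta pairs, and all of these pairs were picked by their difference between small and large follicles. Between neighbouring sizes no arm ratio was called, with 0.0% of the 46 pairs between medium and small and 0.0% between large and medium follicles. Unadjusted p values under 0.05 were found for 4 of the 33 pairs in the first and 9 in the second of these comparisons, beside 8.7% and 28.3% of the 46. limma with a pseudocount of 5 called 0 of the 33 in the first, beside 0.0% of the 46, and 3 in the second, beside 6.52%. For large against medium follicles, leaving out medium 8 gave 5 calls (chi-miR-1307-5p, chi-miR-148a-5p, chi-miR-30d-3p, chi-miR-335-3p and chi-miR-873-3p), and leaving out large 12 gave 2 (chi-miR-148a-5p and hsa-miR-744-3p). The shares over the 46 pairs are not given for these fits, so their counts do not set the homologous pairs apart. The lowest FDR with all pools was 0.0711, for chi-miR-148a-5p (1.82) and chi-miR-873-3p (2.10).

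Pairs near the threshold were chi-let-7d-3p, mml-miR-31-3p and chi-miR-25-5p, with an edgeR FDR of 0.0513, 0.0516 and 0.0516. For mml-miR-31-3p the change was -2.21, and -4.03 to -1.42 with a pool left out. This arm had 9, 1 and 1 reads in large 10, 11 and 12 and entered the list through small follicles alone. The 14 pairs farther from the threshold had differences of -1.15 to 0.72 on the log2 scale. On chromosome X, the homologous arm made up 51.7% of the pooled counts of its pair for chi-miR-374a-3p, 61.8% for chi-miR-3431-3p and 42.3% for mml-miR-452-3p. By pool chi-miR-374a-3p made up 54.6, 52.9 and 45.5% in the small, 63.1, 64.3 and 32.5% in the medium and 56.3, 67.1 and 29.2% in the large pools. chi-miR-3431-3p made up 67.0, 53.5 and 68.5% in the small, 59.6, 37.4 and 58.1% in the medium and 52.1, 61.9 and 61.4% in the large pools. The former led in 6 pools and the latter in all but medium 6, and neither ratio passed the test (0.00, edgeR FDR = 0.999, and -0.28, edgeR FDR = 0.702). mml-miR-452-3p and bta-miR-452 were both lower in large than in small follicles, with log2 fold changes of -2.06 (edgeR FDR = 0.00586) and -1.46 on the log2 scale (edgeR FDR = 0.0204), and their ratio did not pass the test (-0.58, edgeR FDR = 0.475). Both arms entered the list through small follicles alone.

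The other 12 homologous loci had no bta partner in the set of 249. For 7 of them the deposited loci outside the miRNA lists held a locus of 22 to 25 bases at a distance of 36 to 46 bases, on the side of the missing arm. The homologous locus had more counts than this neighbour in each case, from 63.2% of both for chi-miR-3432-3p to 98.8% for chi-miR-500-3p, with 78.4% for chi-miR-34b-3p, 81.1% for chi-miR-145-3p, 77.7% for chi-miR-708-3p, 94.9% for eca-miR-199b-3p and 96.7% for chi-miR-340-5p. The mean of the neighbour was under 100 counts in every size. All 45 homologous loci averaged 100 counts or more over the small pools, and 18 did so in no other size. The lead of the 7 homologous loci over these neighbours in the small pools was thus set by which loci were listed. For ssc-miR-1285 the neighbour was a locus of 50 or 51 bases with 1669 and 1784 counts, more than the homologous locus. No deposited locus lay in that position for eca-miR-24, mmu-miR-1983 and tch-miR-200b-3p. Of the partnerless loci not yet described, chi-miR-340-5p, in the span of RNF130, had normalized counts of 342, 253 and 118 in the small, 199.8, 209.6 and 99.4 in the medium and 72.5, 263 and 47.8 in the large pools. chi-miR-3432-3p had 37.5, 28.1 and 64.4 in the small, 44.0, 29.6 and 54.8 in the medium and 11.2, 42.6 and 133 in the large pools. mmu-miR-1983 had 42.4, 30.7 and 54.6 in the small, 73.3, 4.56 and 59.0 in the medium and 11.2, 14.2 and 44.2 in the large pools. The sizes overlapped at these 3 loci, and chi-miR-3432-3p was highest in large 12. tch-miR-200b-3p had 177, 213 and 171 in the small, 746, 209.6 and 318 in the medium and 167, 249 and 49.5 in the large pools. eca-miR-24 had 323, 234 and 422 in the small, 215, 230.1 and 418 in the medium and 128, 192 and 271 in the large pools. tch-miR-200b-3p, from a family known in epithelium, was highest in medium 5 and lowest in large 12, and the sizes overlapped at both loci. eca-miR-24 had 3403 counts beside 3356 for bta-miR-24-3p, with a ratio of 0.849 to 1.36 in each sample, and did not pass the test in its own abundance (-0.71, edgeR FDR = 0.184). chi-miR-500-3p, of chromosome X, had 1421, 1157 and 1326 in the small, 1095, 799.6 and 1502 in the medium and 1076, 1421 and 1523 in the large pools. The 3 sizes overlapped, with a difference between large and small follicles of 0.04 (edgeR FDR = 0.933).

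Markers of several cell types were measured in the same libraries. The summed normalized counts of 4 miRNAs of blood cells (bta-miR-451, bta-miR-486, bta-miR-142-5p and bta-miR-150) were 490.4 to 2493 in the small, 1534 to 2932 in the medium and 7144 to 15500 in the large pools, and relative to the miRNA set all 4 had positive values from small to large follicles, 3 of them called, while 2 of the 4 had positive values under the total count of all loci and 1 under TMM over all loci. Those of 3 mesenchymal miRNAs at 4 loci (bta-miR-143, bta-miR-199a-5p and bta-miR-214) were 5856 to 22210, 2563 to 7620 and 4731 to 10520, with none called. Outside this list, bta-miR-199a-3p was lower in large than in small follicles at both its loci (-1.43, edgeR FDR = 0.0127, and -1.58, edgeR FDR = 0.0109). Of the homologous loci known from mesenchyme and vascular wall, eca-miR-199b-3p and chi-miR-145-3p were called lower and chi-miR-195-3p higher. For 3 epithelial miRNAs they were 239.8 to 413, 124.7 to 520.7 and 51.3 to 172.9, with 1 called lower. For the endothelial bta-miR-126-5p they were 116 to 242, 56.8 to 120 and 195 to 458, and for both arms of miR-202 in gonadal cells 17460 to 19060, 15400 to 26430 and 11580 to 34280, with none called. The gonadal sum includes chi-miR-202-3p, which is itself a homologous locus. No blood, endothelial, mesenchymal or gonadal marker was at 0 in any pool, and 1 epithelial marker was at 0 in at least 1 pool. The part of these cells in the changes of abundance and of arm ratio was not tested.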

How the data were processed

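Values are raw counts of reads per locus in 9 samples, deposited by the authors in 1 table of 101889 loci with positions on UMD3.1. The authors sequenced size-selected small RNA libraries and aligned the trimmed reads with BWA 0.7.5a, per the labels and the study's methods. They dropped thinly covered loci and counted reads on the densest run of bases of each. The study's lists name 249 loci as known (bta) or, by near-match to a miRNA of another species, homologous, and keep loci with a mean of 100 counts in some size; names and positions alone were taken from them. How reads that match several loci were assigned is not given in the sources used here, so counts of names at more than 1 locus are uncertain. The homologous loci, the pairs and the gene and marker lists were chosen with earlier results of these data known.

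Here counts were normalized by TMM over the 249 loci and tested with edgeR 4.0.16 in R 4.3.3 (quasi-likelihood test, all 3 sizes in 1 fit, no block), with Benjamini-Hochberg adjustment over the 249 loci. A pair was a homologous and a bta locus, or 2 bta loci, on 1 chromosome and strand with starts 20 to 80 bases apart. The change of the arm ratio was the arm-by-size interaction in an edgeR fit of both arms' counts with a term for each library, adjusted over 46 pairs. Log2 ratios by sample used a pseudocount of 0.5. Alternatives were DESeq2 1.42.0, the exact test, limma 3.58.1, other scalings and filters, and leaving out each pool. No filter on low counts was applied. Any homologous locus could be named; values by sample were given for the 3 with the most counts, the 3 largest rises and falls without overlap, the called pairs, the pairs led by the homologous arm in all 9 samples and the loci with no bta partner, and further loci were chosen after their values were seen. Columns of the authors' own comparisons (fold changes and p-values) in the lists were not used. The edgeR fits of abundance and of arm ratios were run on simulated data, and the alternative tools were not. The simulation drew loci independently with a common spread, so it does not give the error rate in these data. Libraries were PCR-amplified, so the limits from a count of 0 cover counting error only.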

Additional observations from a re-analysis of the deposited data

How the results depend on the processing

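No paired analysis was possible because the replicate numbers in the labels differ between the sizes and do not tell which pools share a collection. Of the homologous loci, 16 (35.6%, beside 42.2% of the 249) were called between large and small follicles, and 8 to 19 with a pool left out. The count was 32 with the total count of all loci and 44 with TMM over all loci. These scalings moved the median log2 value of all 249 loci to -3.06 and -4.71, so these counts do not set the homologous loci apart. Between medium and small follicles the count was 0, beside 0.0% of the 249. It was 3 with the exact test (beside 6.43%), 4 with DESeq2 (beside 11.2%) and 4 at an FDR under 0.1 (beside 16 of the 249). With the total count of all loci it was 6, with TMM over all loci 14, and with a pool left out 0 to 3 (3 without large 12). Between large and medium follicles it was 2, beside 10.4% of the 249. It was 6 with the exact test (beside 22.1%), 6 with DESeq2 (beside 25.3%) and 8 at an FDR under 0.1 (beside 65 of the 249). With the total count of all loci, with TMM over all loci and with these 2 groups alone it was 0. With a pool left out it was 0 to 2 (0 without medium 5, medium 6 or large 11). The 16 arm pairs called between large and small follicles were 48.5% of the 33, beside 50% of the 46. The count ranged from 9 to 19 pairs with a pool left out, and the other alternatives gave 13 to 19. Between large and medium follicles 0 pairs were called, beside 0.0% of the 46. The count was 3 with limma and a pseudocount of 5 (beside 6.52%) and 3 at an FDR under 0.1 (beside 4 of the 46). It was 4 without medium 8 and large 12 together (chosen after seeing the data) and 0 to 5 with a pool left out. Shares over the 249 loci or the 46 pairs are not given for the other counts. The share of the homologous loci, 3.06, 3.82 and 4.09% of the miRNA set in small, medium and large follicles, was 0.654, 0.252 and 0.137% of all loci, 1.34, 0.704 and 0.481% of loci of 18 to 30 bases, and 1.64, 2.07 and 2.63% of the set without chi-miR-202-3p.

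Under the total count of all loci and under TMM over all loci, the log2 fold changes from small to large follicles were -1.01 and -2.75 for chi-let-7b-3p, -0.97 and -2.64 for chi-let-7d-3p, -1.55 and -3.21 for chi-miR-195-3p, -0.92 and -2.54 for chi-miR-28-3p, -1.27 and -2.92 for chi-miR-361-3p, -0.64 and -2.26 for efu-miR-181f, -1.31 and -2.87 for ssc-miR-1285 at chr10:42863853-42863882, -1.29 and -2.90 for that at chr10:42877892-42877921, and -2.38 and -3.92 for chi-miR-202-3p, each the opposite sign of the value within the miRNA set. The miRNA set itself took a smaller part of all loci in large follicles, which by construction lowers these values; the cause of that was not tested. None of the arm ratios called between large and small follicles changed sign under any alternative with all pools. The uncalled pairs were not followed in this way. Those 18 values and the fits that left out a single pool are not counted here. Among the rest, 147 values of single loci kept their side of the threshold and 5 did not. For arm pairs the counts were 99 and 10. Both sets include values at an FDR under 0.1, which repeat the main fit, so a called value could not lose its call there. They also include the fit, chosen after seeing the data, that left out a medium and a large pool together. The values of single loci include those lower in large follicles under the scalings by all loci, which lower the whole set. The counts of kept values thus overstate the number of separate checks. With median counts of 25 and 27 in large 10 and 11, ratios of scarce arms in large follicles rest on few reads.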
